A study of Homo sapiens with 50 samples.

Results

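H1299shRAD9 cells that were bystanders of α particle irradiation and responded with micronuclei (bystander positive, BP) were compared with sham-irradiated H1299shRAD9 control cells (CTL). The comparison used the 5 arrays labeled bystander positive and the 5 labeled control, paired by replicate number, 10 of the 50 arrays of the series. H1299 is a human non-small cell lung carcinoma line, and H1299shRAD9 cells express a short hairpin RNA (shRNA) against RAD9 mRNA from a stable integrant, so both groups compared were RAD9-depleted. Cells grew on concentric Mylar dishes on which 1 Gy of α particles (helium ions) reached the cells on the thin film and stopped short of the bystander cells on the thick film, and RNA was taken 4 h later. Per the methods of the study, dishes were chosen by the micronucleus frequency of a small part of the same culture. BP dishes had bystanders with many micronuclei, bystander negative (BN) dishes had bystanders with few, and the directly hit cells of BP dishes (DBP) were arrayed as well. The H1299shRAD9 samples came from a pair of stable transfectants used interchangeably, and the labels do not say which one gave each sample.

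Radiation-induced bystander effects are changes in cells that no particle crossed, carried by secreted factors and by gap junctions from cells that were hit. Micronuclei form when chromosome fragments or whole chromosomes are left outside the nucleus at mitosis. RAD9 is a subunit of the RAD9-HUS1-RAD1 clamp, which is loaded onto damaged DNA and activates the checkpoint kinase ATR. Cells that sense amino acid shortage, misfolded protein or other stress phosphorylate eIF2α, which raises translation of the transcription factor ATF4, and ATF4 then induces genes of amino acid synthesis and import, tRNA charging and cell death, a program called the integrated stress response.

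The arrays were 1-color Agilent arrays, and every level below is a log2 processed intensity relative to the median of the same array, so a level is read within 1 feature (probe) and not between features. The share of probes well above background ranged from 58.6% to 65.4% on CTL arrays and from 58.1% to 66.3% on BP arrays. The vimentin gene VIM, N-cadherin CDH2, ZEB1 and the keratins KRT8, KRT18 and KRT19 were well above background on all 10 arrays, while E-cadherin CDH1, FN1 and the lung factor NKX2-1 were so on 0 arrays. The lung secretory markers SFTPC and SCGB1A1 were well above background on all 10. Of 11 markers of leukocytes, endothelium and fibroblasts, PTPRC, CD14 and CDH5 were well above background on all 10 arrays, and PECAM1, COL1A1, COL1A2 and LUM on 0.

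The transcript targeted by the shRNA did not separate the groups. RAD9A was measured by 1 feature, and its level in replicates 1 to 5 was 3.85, 3.71, 3.70, 3.34 and 3.64 in CTL and 3.83, 3.82, 3.44, 3.55 and 3.75 in BP. The groups overlapped, 3 of 5 pairs were higher in BP, and the mean difference was 0.03 ± 0.10 (SE; 2-sided exact permutation test over the pairs, p = 0.75). In H1299 controls without the shRNA the same feature was at 4.01 ± 0.13 (SD, n = 5). RAD1, another subunit of the clamp, differed by 0.10 ± 0.09 between BP and CTL (adjusted p = 0.754, limma). HUS1 was well above background on 1 array of each group and was not tested.

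Of 12206 features that passed the filters on background and variation, 285 (2.33%) differed between BP and CTL at p under 0.006 with a Benjamini-Hochberg adjusted p under 10%, by limma with pairs as blocks. Nearly all were higher in BP: 265 rose (2.17% of the features) and 20 fell (0.164%). The rises were modest, with a median of 0.62 on the log2 scale and a range of 0.40 to 1.31, and the falls had a median of −0.64 and a range of −0.44 to −1.18. Of the 285, which were chosen by a test on these pairs, 283 moved the same way in all 5 pairs, against 13.5% of all features tested. The groups overlapped for most of them, since 86 of the 285 had BP and CTL levels that did not overlap, against 170 (1.39%) of all features tested. The smallest adjusted p was 0.0448, and 1534 features had an unadjusted p under 0.05.

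The calls rested on the pairing and on the number of pairs. Without the replicate block 0 features were called (smallest adjusted p 0.338, limma), with 766 at an unadjusted p under 0.05. Leaving out pair 1, 2, 4 or 5 gave 0 calls as well, with 1361, 1080, 1537 and 1257 features at an unadjusted p under 0.05, and leaving out pair 3 gave 199. The 265 rises, which were selected on these pairs, had a median difference of 0.71, 0.55, 0.55, 0.61 and 0.63 in replicates 1 to 5. Pairs 2 to 5 were each scanned on 1 day, and the BP array of pair 1 lay on a slide that otherwise held H1299 arrays. Both arrays of pair 4 and both of pair 5 shared a slide, so these values, and those of each gene in replicates 4 and 5, are also differences within a slide. The median over all features tested was 0.05, 0.05, −0.01, −0.05 and 0.06 in the same pairs.

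**Figure D1:**
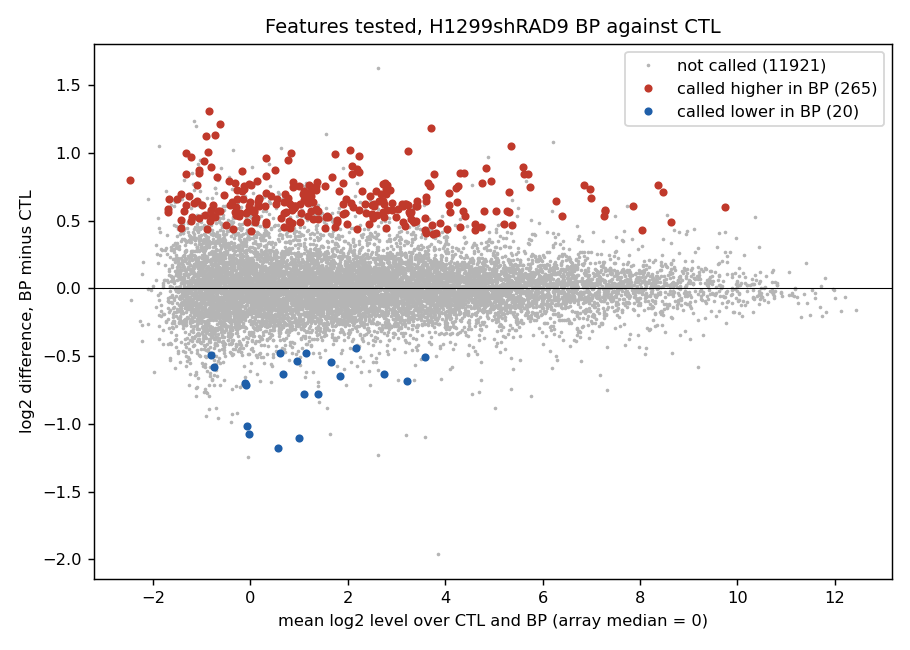
Log2 difference between BP and CTL (vertical axis) against the mean log2 level of each feature relative to the array median (horizontal axis), for the 12206 features tested in H1299shRAD9 cells. The 265 features called higher and the 20 called lower are colored, and the called features lie at low as well as high levels.

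Rises were more frequent in probes that lie toward the 5′ end of their transcripts. For 2512 transcripts with more than 1 feature, the most 5′ feature was called higher in 136 (5.41%) and the most 3′ feature in 12 (0.478%), and both were called in 3. The median difference between BP and CTL was 0.09 at the 5′ feature and −0.00 at the 3′ feature. Where the 5′ feature was called, the median at the 3′ feature was 0.00, and 71 of the 136 were above 0 there. An index per array, the median of 5′ minus 3′ levels over these transcripts, had a mean of −1.45 ± 0.04 (SD, n = 5) in CTL and −1.35 ± 0.04 in BP, with the highest CTL array level with the lowest BP array, and was higher in BP in all 5 pairs (differences 0.06, 0.06, 0.23, 0.13 and 0.02). The 2-sided exact permutation p of 0.0625 is the smallest that 5 pairs allow. The CTL mean was the lowest of the 5 H1299shRAD9 groups, whose other means lay between −1.35 and −1.31. With the index as a covariate beside the replicate block, 0 features were called (smallest adjusted p 0.180, limma), with 1625 at an unadjusted p under 0.05, and with only the most 3′ feature of each transcript 58 of 10458 were called. The part of the index in the rises was otherwise not tested.

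The rises were also compared with the features of the same genes that were not called higher. Of 272 genes with a rise under at least 1 feature in the features that passed the background filter, 193 had more than 1 feature, and in 3 of these all were called higher. The 254 features of the 193 genes that were not called higher had a median difference of 0.04, with 155 (61.0%) above 0. Of all features, called ones included, 54.7% lay above 0. Leaving out further features that were called higher lowers the median and the share of the 254. When each gene was represented by its brightest feature, without the criterion on variation, 81 of 13810 genes (0.587%) were called, 77 higher (0.558%) and 4 lower (0.029%), and the median over all genes was 0.01. Gene groups are described on that scale of 1 feature per gene, with the replicate block, unless a feature is named as another one. The shares of all genes to set beside each list are 0.558% called higher, 0.029% called lower and 54.1% above 0.

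**Figure D2:**
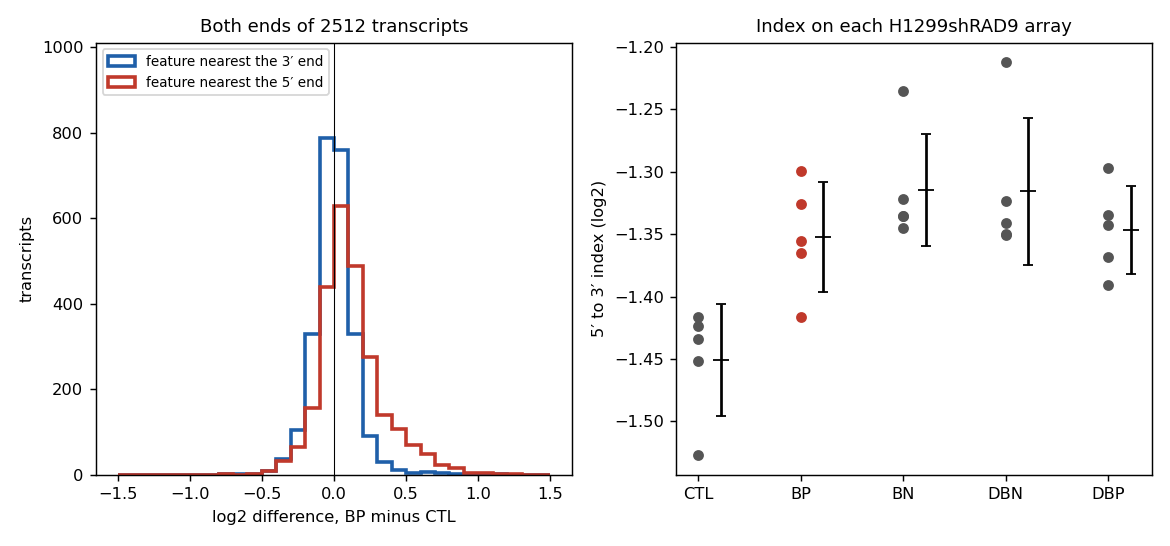
Differences between BP and CTL at the ends of 2512 transcripts (left, histograms of the log2 difference at the most 5′ and most 3′ feature, values beyond the axis counted in the outer bins) and the 5′ to 3′ index of each array by group (right, points, with mean and SD). The 5′ histogram is shifted to the right of the 3′ histogram (medians 0.09 and −0.00), and the 5 CTL arrays lie low in the index, with a mean of −1.45.

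Genes of the integrated stress response were higher in BP. Of 36 measured genes of this list, 34 lay above 0 with a median of 0.26, against 54.1% of all genes above 0 and a median of 0.01. CHAC1, GDF15, PCK2 and ASNS were called, 17 of the 36 had an unadjusted p under 0.05 in the direction of a rise, and 0 in the direction of a fall, against 751 and 456 of all 13810 genes. The median of the list was above 0 in each pair, at 0.20, 0.19, 0.56, 0.11 and 0.30 in replicates 1 to 5. With the 5′ to 3′ index as a covariate the median was 0.11, with 28 of 36 above 0, and 6 had an unadjusted p under 0.05 toward a rise and 2 toward a fall.

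CHAC1, which degrades glutathione and is a late target of the ATF4 branch, had the largest rise of the list. Its level was 2.78, 2.72, 3.51, 3.39 and 3.22 in CTL and 3.27, 3.29, 5.86, 4.56 and 4.56 in BP. Replicate 3 of BP stood highest and replicates 1 and 2 of BP lay within the range of the controls, so the groups overlapped although every pair rose. The difference was 1.18 ± 0.25 (SE, 2.27-fold; adjusted p = 0.0758, limma). Another CHAC1 feature differed by 1.02 ± 0.39 (adjusted p = 0.360, limma without the criterion on variation).

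Asparagine synthetase (ASNS) makes asparagine from aspartate and is a classical target of ATF4. It was at 7.92, 8.00, 8.74, 8.84 and 8.45 in CTL and at 8.31, 8.40, 9.46, 9.16 and 9.05 in BP, a difference of 0.49 ± 0.10 (SE, 1.40-fold; adjusted p = 0.0791, limma). Replicates 1 and 2 were low and replicates 3 to 5 high in both groups, and each BP array was above the CTL array of its own number. PCK2, the mitochondrial phosphoenolpyruvate carboxykinase, was at 0.30, 0.04, 0.81, 0.81 and 0.45 in CTL and 0.55, 0.53, 1.81, 1.66 and 1.00 in BP, and rose by 0.63 ± 0.13 (adjusted p = 0.0698, limma). The secreted stress cytokine GDF15 was at 0.66, 0.42, 2.49, 2.17 and 1.60 in CTL and 1.26, 0.64, 3.73, 2.75 and 2.55 in BP, a rise of 0.72 ± 0.15 (adjusted p = 0.0764, limma). For GDF15 the span between replicates within a group was larger than the difference between the groups.

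Other members that were not called on the scale of 1 feature per gene had differences of 0.80 for DDIT4, an inhibitor of mTORC1, 0.65 for the transcription factor ATF3, 0.62 for SESN2, a sensor of leucine, 0.54 for TRIB3, a pseudokinase induced by stress, and 0.53 for DDIT3, which encodes the death-associated factor CHOP. The secreted peptide gene ADM2 differed by 0.59 and was called among the 12206 filtered features, and not among the genes. ATF4 itself, which is regulated mainly at translation, differed by 0.09, and NUPR1, a stress-induced chromatin protein, by 0.25 ± 0.16 (adjusted p = 0.605, limma).

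The promoters of this list were searched for the letters of the composite element to which ATF4 binds together with C/EBP factors. The sequence TGATGNAA, in which N is any base, on either strand, was present in the 250 bases before the start of 4 of 30 list genes with a RefSeq promoter (13.3%), and of 870 of 27305 promoters in all (3.19%). The 4 promoters are printed 5′ to 3′ in the direction of the gene (RefSeq, GRCh38.p14), with the match in capitals. ASNS and CHAC1 are members that were called, while ATF3 and HERPUD1, which encodes a protein of endoplasmic reticulum degradation, were not.
ASNS promoter, chr7:97872409-97872658, minus strand: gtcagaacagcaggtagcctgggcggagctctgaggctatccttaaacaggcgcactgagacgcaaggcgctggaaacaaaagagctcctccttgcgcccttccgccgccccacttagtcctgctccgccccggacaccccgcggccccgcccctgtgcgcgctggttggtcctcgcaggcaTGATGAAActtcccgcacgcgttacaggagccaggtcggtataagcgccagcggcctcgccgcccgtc
CHAC1 promoter, chr15:40953221-40953470, plus strand: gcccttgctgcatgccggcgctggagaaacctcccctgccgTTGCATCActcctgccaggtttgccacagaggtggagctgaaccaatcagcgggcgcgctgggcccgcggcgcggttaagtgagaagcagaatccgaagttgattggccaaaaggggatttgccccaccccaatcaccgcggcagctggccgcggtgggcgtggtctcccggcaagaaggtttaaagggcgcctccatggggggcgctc
ATF3 promoter, chr1:212565157-212565406, plus strand: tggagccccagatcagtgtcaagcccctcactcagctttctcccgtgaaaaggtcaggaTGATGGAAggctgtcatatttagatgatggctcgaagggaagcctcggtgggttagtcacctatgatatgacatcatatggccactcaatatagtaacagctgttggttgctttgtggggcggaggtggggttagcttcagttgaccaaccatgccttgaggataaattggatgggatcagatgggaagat
HERPUD1 promoter, chr16:56931892-56932141, plus strand: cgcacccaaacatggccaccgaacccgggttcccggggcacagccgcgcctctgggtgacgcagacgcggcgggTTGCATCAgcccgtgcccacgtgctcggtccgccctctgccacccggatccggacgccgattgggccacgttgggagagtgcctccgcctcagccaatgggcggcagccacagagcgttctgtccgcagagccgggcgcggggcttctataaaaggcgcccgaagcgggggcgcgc
The match lay 68 bases before the start in ASNS, on the strand of the gene, and 209 bases before it in CHAC1, on the other strand. The windows of PCK2, GDF15, TRIB3 and ADM2 did not hold these letters. HERPUD1 differed by 0.31 between BP and CTL.

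Enzymes that charge tRNAs were mostly above 0 as well. Of 22 cytosolic aminoacyl-tRNA synthetases and their cofactors, 20 lay above 0, with a median of 0.11. The median was above 0 in 4 of 5 pairs and −0.02 in replicate 4. An unadjusted p under 0.05 (limma) was reached by 3 toward a rise and 0 toward a fall, and 1 gene was called. That gene was LARS1, the leucyl-tRNA synthetase, at 4.76, 4.06, 4.57, 4.45 and 4.85 in CTL and 5.31, 4.90, 5.30, 5.35 and 5.79 in BP. Every BP array was above every CTL array, and the rise was 0.79 ± 0.10 (SE, 1.73-fold; adjusted p = 0.0448, limma). The cysteinyl- and alanyl-tRNA synthetases CARS1 and AARS1 followed with differences of 0.43 and 0.31 and were not called.

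**Figure D3:**
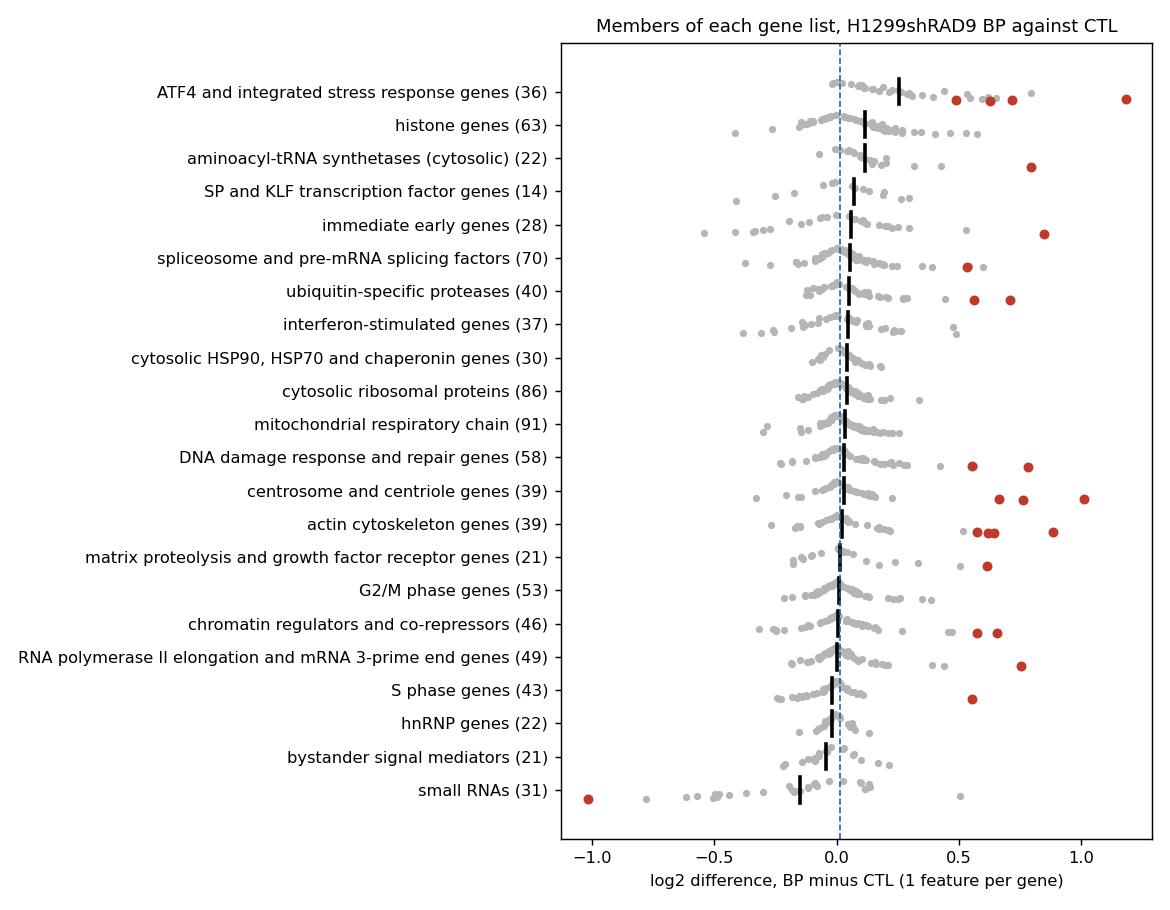
Log2 difference between BP and CTL of each measured gene (points) in each gene list on 1 feature per gene, with the list median as a black bar, the median of all genes as a dashed line, called genes in red and the number measured in parentheses. Genes of the integrated stress response lie furthest to the right, with 34 of 36 above 0, and small RNAs furthest to the left, with 8 of 31 above 0.

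Among immediate early genes, which respond within minutes to growth factors and stress without new protein, members moved in opposite directions and 15 of 28 lay above 0. EGR1, a zinc finger factor downstream of ERK, was at 2.56, 2.43, 3.99, 3.93 and 3.84 in CTL and 3.32, 3.42, 5.45, 4.45 and 4.34 in BP. It rose in every pair, by 0.85 ± 0.15 on average (SE, 1.80-fold; adjusted p = 0.0464, limma), and replicates 1 and 2 were the lowest of both groups. FOS differed by 0.53 and was not called. ID2, an inhibitor of basic helix-loop-helix factors, fell under 1 feature, from 2.26, 2.91, 2.03, 1.76 and 1.89 in CTL to 1.93, 1.98, 1.40, 1.27 and 1.05 in BP, by 0.65 ± 0.12 (adjusted p = 0.0475, limma). Its brighter feature differed by −0.54 ± 0.13 (adjusted p = 0.107, limma) and passed without the criterion on variation (adjusted p = 0.0981, limma). The related ID3 and ID1 differed by −0.41 and −0.34 and the antiproliferative gene BTG2 by −0.33, and none of these was called. ID2 levels overlapped between the groups while every pair moved down.

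The largest rise of a feature with a gene symbol was that of ZNF480, a KRAB zinc finger gene. Its level was −1.07, −2.17, −1.42, −1.68 and −1.22 in CTL and 0.30, −0.52, −0.99, 0.10 and 0.09 in BP, and it was well above background on 4 CTL arrays and all 5 BP arrays. All BP arrays were above all CTL arrays, with a difference of 1.31 ± 0.19 (SE, 2.47-fold; adjusted p = 0.0448, limma). MYH16, a myosin heavy chain pseudogene in humans, was at −0.51, −2.35, −1.19, −1.35 and −0.78 in CTL and 0.49, −0.45, −0.50, −0.53 and 0.88 in BP, a rise of 1.22 ± 0.19. The phospholipid flippase gene ATP8B2 rose by 1.13 ± 0.22, from −1.50, −1.49, −1.64, −1.03 and −0.87 to 0.26, −0.82, 0.28, −0.58 and 0.00, without overlap. These 3 features lay below the array median in every CTL array. Across all rises, 28 of the 265 were well above background on fewer than 4 of the 5 CTL arrays.

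AKAP12, a scaffold that anchors protein kinase A and C, was at 4.70, 4.25, 5.29, 4.70 and 5.22 in CTL and 6.19, 5.25, 5.71, 5.77 and 6.48 in BP, a rise of 1.05 ± 0.15 (SE, 2.07-fold; adjusted p = 0.0448, limma). Its remaining features differed by 0.17 each. CDCP1, a transmembrane substrate of SRC kinases, was at 2.04, 1.74, 1.18, 1.13 and 1.62 in CTL and 3.58, 2.69, 1.72, 1.96 and 2.87 in BP, a rise of 1.02 ± 0.15, while its other feature differed by 0.03. For both genes, therefore, a rise under 1 feature stood beside a difference near 0 under another.

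For further leading rises, other features of the same gene ranged from a difference near 0 to a smaller one in the same direction. The RNA helicase gene DDX10 rose by 0.96 ± 0.13 without overlap, from −0.17 ± 0.29 (SD) in CTL to 0.80 ± 0.44 in BP, and its other feature differed by 0.12. SH3KBP1, an adaptor in endocytosis of receptor kinases, had the smallest p of all features. It was at 0.86, 0.02, 0.29, 0.08 and 0.23 in CTL and 1.75, 1.05, 0.98, 1.07 and 1.36 in BP, a rise of 0.95 ± 0.10 (SE, 1.93-fold; adjusted p = 0.0448, limma), with another feature called at 0.57 and one at 0.12. IMMT, which shapes the cristae of mitochondria, rose by 0.90 ± 0.16 and, under another feature, by 0.62, while the remaining one differed by 0.14. ANKRD11, a chromatin cofactor, rose under 2 features by 0.89 each and differed by 0.18 under the other. PPP1R9A, an actin-binding protein of neurons, rose by 0.87 ± 0.12 and differed by 0.07 under its other feature. SYT1, a calcium sensor of vesicle release, rose by 0.99 ± 0.16 with 0.42 under its other feature, and the zinc finger and homeobox gene ZHX3 by 0.97 ± 0.20 with 0.23 and 0.44. HOXA6, a homeobox gene with 1 tested feature, rose by 1.00 ± 0.17.

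**Figure D4:**
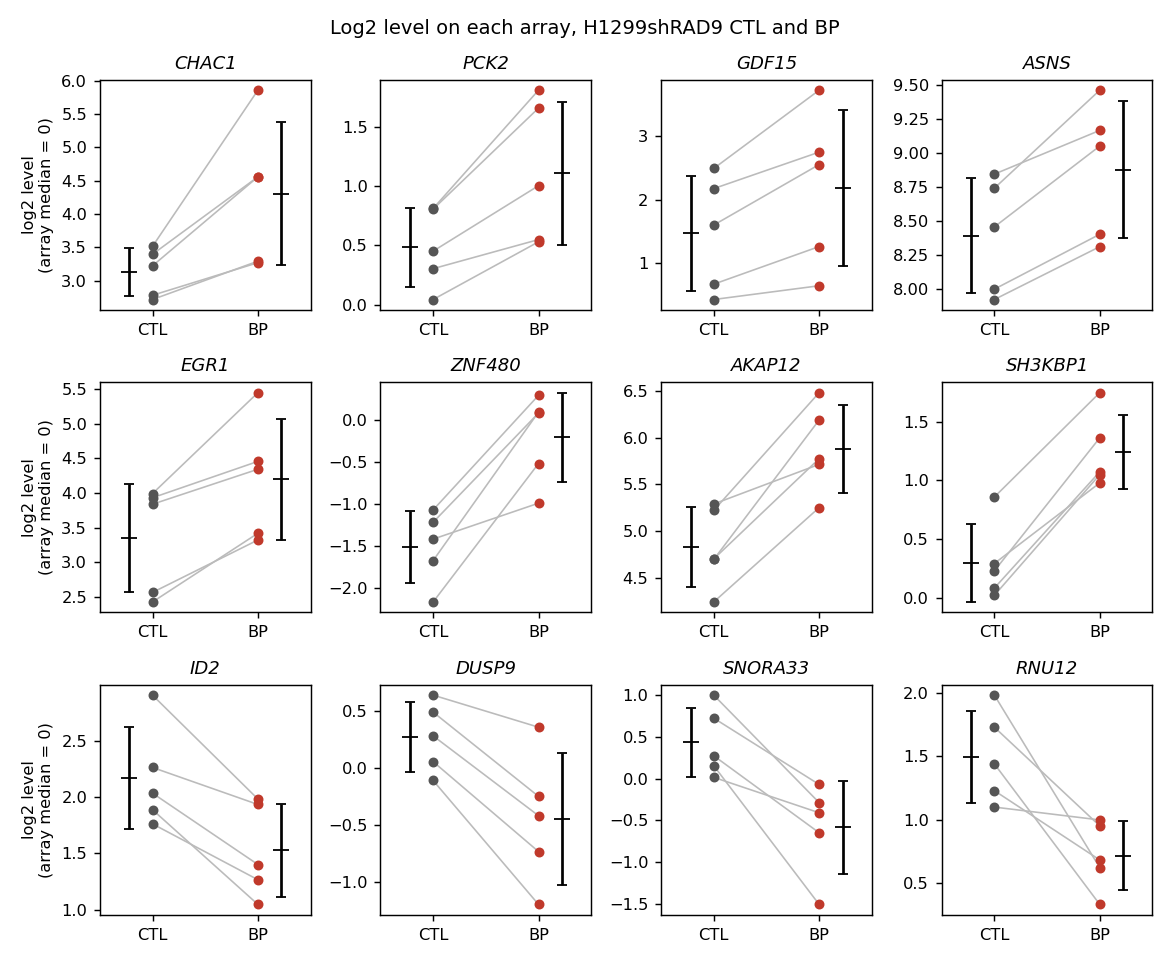
Log2 level relative to the array median in the 5 CTL and 5 BP arrays for genes described in the text, with lines joining arrays of the same replicate number and bars for the mean and SD. Lines run upward in all pairs for CHAC1 and ZNF480 and downward in all pairs for SNORA33.

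Regulators of the actin cytoskeleton included 4 called genes among 39, and 24 of the 39 lay above 0 (median 0.02). Over all genes, 0.558% were called higher and 54.1% lay above 0 (median 0.01). LIMS1, an adaptor of integrin-linked kinase, was at 3.51, 3.31, 3.15, 3.15 and 3.32 in CTL and 4.28, 3.86, 3.70, 3.85 and 3.99 in BP. The groups did not overlap, and the rise was 0.64 ± 0.09 (SE, 1.56-fold; adjusted p = 0.0448, limma). MYO5A, a myosin that carries vesicles, rose by 0.88 ± 0.16, the formin DIAPH3 by 0.62 ± 0.10, and the focal adhesion gene LPP by 0.57 ± 0.12. Under a feature other than its brightest, the actin bundling gene PALLD rose by 0.76. In all, 9 of the 39 genes had at least 1 feature called higher, against 241 of all 13810 genes. Genes with more features have more chances of such a call, and this was not adjusted for.

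At the centrosome, 3 of 39 genes were called higher and 24 lay above 0 (61.5%, median 0.03), where 0.558% of all genes were called higher and 54.1% lay above 0. STIL, which starts the assembly of new centrioles, was at 2.75, 1.78, 3.29, 2.70 and 3.15 in CTL and 3.98, 3.17, 3.21, 3.95 and 4.42 in BP. Replicate 3 was slightly lower in BP and the other 4 pairs rose, by 1.01 ± 0.21 on average (adjusted p = 0.0726, limma), and its other feature differed by 0.07. CEP350, a large centriole protein, rose by 0.76 ± 0.13. CNTRL, the centriolin gene, rose by 0.66 ± 0.12 and under another feature by 0.78, with 0.07 under the remaining one.

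In the nucleus, calls were spread thinly over several groups. Of 46 chromatin regulators, 2 were called on 1 feature per gene and 25 lay above 0 (median 0.00). The 2 were the histone demethylase PHF8 with 0.65 ± 0.11 and the nuclear receptor co-repressor NCOR1 with 0.57 ± 0.11. At least 1 feature was called higher in 9 of the 46, against 241 of all 13810 genes, without adjustment for the number of features per gene. Of 49 genes of RNA polymerase II elongation and mRNA 3′ ends, 7 had at least 1 feature called higher, beside the same 241 of 13810. On 1 feature per gene, 1 of the 49 was called. That gene was the poly(A) polymerase PAPOLA, at 3.33, 3.12, 3.32, 3.15 and 3.60 in CTL and 4.11, 3.74, 3.80, 4.17 and 4.46 in BP, which rose by 0.75 ± 0.11 without overlap. Among 70 splicing factors, 49 lay above 0 (median 0.05) and SF3B1, the subunit of the U2 snRNP that contacts the branch point, was called at 0.53 ± 0.09. Of 22 hnRNP genes, 8 lay above 0 (median −0.02) and 0 were called, and the members with the smallest p, HNRNPH3 and HNRNPH1, differed by 0.13 ± 0.11 and −0.16 ± 0.12. Under features other than their brightest, HNRNPA3 rose by 0.70 and HNRNPA2B1 by 0.64.

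DNA damage response genes numbered 58, of which 35 lay above 0 (median 0.03) and 2 were called. Over all genes, 54.1% lay above 0 (median 0.01) and 0.558% were called higher. PARP1, which makes poly(ADP-ribose) at DNA breaks, was at 4.37, 3.85, 4.60, 4.32 and 4.65 in CTL and 5.69, 4.48, 5.01, 4.97 and 5.54 in BP. It rose by 0.78 ± 0.14 (SE, 1.72-fold; adjusted p = 0.0464, limma), with 0.02 under its other feature. Claspin (CLSPN), the adaptor that lets ATR activate CHK1, was at 0.87, 0.33, 0.77, 0.83 and 0.97 in CTL and 1.47, 1.06, 1.10, 1.31 and 1.58 in BP. It rose by 0.55 ± 0.10 without overlap, and was also the 1 called member of 43 S phase genes (17 above 0, median −0.02).

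Among deubiquitinases, 2 of 40 ubiquitin-specific proteases were called and 26 lay above 0 (median 0.05), where 0.558% of all genes were called higher and 54.1% lay above 0. The rises were 0.71 ± 0.14 for USP42 and 0.56 ± 0.12 for USP43. Of 63 histone genes, 42 lay above 0 with a median of 0.12, and 10 had an unadjusted p under 0.05 toward a rise. The linker histone gene H1-5 was called among the filtered features, at 4.78, 4.80, 4.82, 4.50 and 4.91 in CTL and 5.79, 5.32, 4.97, 5.06 and 5.54 in BP (0.57 ± 0.13; adjusted p = 0.0973, limma), and 0 histone genes were called on the scale of 1 feature per gene. Some histone genes are close copies of each other, so their probes may share signal.

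MMP14, a membrane-bound metalloprotease that activates MMP2, was the 1 called gene of 21 for matrix proteolysis and growth factor receptors. It was at 1.32, 0.81, 0.08, 0.04 and 0.38 in CTL and 1.97, 1.80, 0.71, 0.62 and 0.60 in BP. The groups overlapped, all 5 pairs rose, and the mean rise was 0.61 ± 0.12 (SE, 1.53-fold; adjusted p = 0.0644, limma). FGFR1, a receptor for fibroblast growth factors, differed by 0.02 ± 0.10 (adjusted p = 0.964, limma) under its brightest feature and by 0.57 ± 0.15 under the other (adjusted p = 0.137, limma). VEGFA, the vascular growth factor, rose by 0.76 under a feature that was not its brightest.

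Other lists had 0 calls on 1 feature per gene, and all are compared with a median of 0.01 over all genes. Of 37 interferon-stimulated genes 21 lay above 0 (median 0.05), and among the filtered features PARP14, a mono-ADP-ribosyltransferase, rose by 0.49 ± 0.11, while IRF9, the DNA-binding subunit of ISGF3, differed by −0.38 ± 0.11. Of 21 measured mediators of bystander signaling 7 lay above 0 (median −0.04), and the chemokine genes CXCL1 and CXCL2 differed by −0.22 ± 0.10 and 0.22 ± 0.10. The 14 SP and KLF factors had a median of 0.07, with −0.25 ± 0.11 for SP1 (adjusted p = 0.473), −0.41 ± 0.12 for SP2 and 0.26 ± 0.12 for KLF7. The 30 cytosolic chaperones had a median of 0.04, with 0.18 ± 0.11 for HSPA4 and 0.18 ± 0.12 for the cochaperone BAG3, while HSP90AA1 had 2 features other than its brightest called, at 0.71 and 0.60. Cytosolic ribosomal proteins (86 measured) had a median of 0.04 and the respiratory chain (91 measured) one of 0.03, and members among those with the smallest p differed by 0.34 for RPL39L, 0.25 for NDUFAF2 and 0.23 for COX7B2. Of 53 G2/M genes 30 lay above 0 (median 0.01), with 0.38 ± 0.10 for the condensin subunit SMC4 and 0.35 ± 0.10 for the spindle protein TACC3, while MKI67 had 2 features other than its brightest called, at 0.74 and 0.73.

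GIPC3 and ACOT11 were examined because the study names them for these cells. GIPC3, a PDZ protein of hair cells, was at −2.08, −0.75, −1.17, −1.03 and −1.80 in CTL and −0.69, 0.71, 0.73, −1.72 and −0.85 in BP. It was higher in 4 of 5 pairs and lower in replicate 4, so that a mean difference of 1.00 ± 0.32 (SE) did not pass (adjusted p = 0.231, limma). ACOT11, an acyl-CoA thioesterase, differed by 0.14 ± 0.10 (adjusted p = 0.650, limma) under its brightest feature and by −0.34 ± 0.36 under the other (adjusted p = 0.777, limma).

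Of the 20 falls, 9 were under probes without a gene, as were 9 of the 265 rises, and 4 fell by at least 1 on the log2 scale. A probe with no gene, A_33_P3304097, was at 0.09, 0.90, 2.13, 1.87 and 0.77 in CTL and at −0.01, −0.05, −0.04, 0.05 and −0.08 in BP. It had the largest fall, −1.18 ± 0.27 (SE; adjusted p = 0.0989, limma), and the BP arrays lay within a narrow band below all CTL arrays. LOC100652917, an uncharacterized locus, was at 0.93, 1.18, 0.56, −0.14 and −0.03 in CTL and −0.55, −0.19, −0.81, −0.83 and −0.51 in BP, and fell by 1.08 ± 0.17 (adjusted p = 0.0448, limma), also without overlap.

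Small noncoding RNA genes were the list furthest below 0. Of 31 measured, 8 lay above 0, the median was −0.15, and 8 had an unadjusted p under 0.05 toward a fall against 1 toward a rise. The median was below 0 in 4 of 5 pairs and 0.11 in replicate 1. Whether the probes of this list measured the mature small RNAs or longer transcripts that hold the same sequence was not tested. SNORA33, an H/ACA small nucleolar RNA that guides pseudouridylation of ribosomal RNA, was the called member. It was at 0.15, 0.27, 1.00, 0.02 and 0.72 in CTL and −1.51, −0.65, −0.29, −0.41 and −0.07 in BP, below every control array, a fall of 1.02 ± 0.17 (adjusted p = 0.0448, limma). In H1299 cells, which have no shRNA and a separate set of controls, the SNORA33 difference between BP and CTL was −1.06 (unadjusted p = 0.00259, limma). RNU12, the U12 snRNA of the minor spliceosome, was at 1.10, 1.23, 1.98, 1.44 and 1.73 in CTL and 1.00, 0.68, 0.62, 0.33 and 0.95 in BP, and fell by 0.78 ± 0.18 among the filtered features (adjusted p = 0.0952, limma). In H1299 cells it differed by 0.01. SNORA81 and SNORA65 differed by −0.62 and −0.50 and SCARNA13 by 0.50, and none was called.

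The 4 probes at which these falls were measured are printed below, 60 bases each, with their hg19 positions, because what a probe without a gene or in a small RNA recognizes can be seen only from its sequence.
A_33_P3304097, chr7:148344339-148344398, minus strand: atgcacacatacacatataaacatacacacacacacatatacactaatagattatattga
LOC100652917, chr18:74696037-74696096, plus strand: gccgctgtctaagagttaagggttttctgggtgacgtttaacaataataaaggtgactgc
SNORA33, chr6:133138175-133138234, minus strand: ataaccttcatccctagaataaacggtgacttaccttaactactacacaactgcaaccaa
RNU12, chr22:43011300-43011359, plus strand: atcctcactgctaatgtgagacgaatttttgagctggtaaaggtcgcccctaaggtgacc
The probe of the largest fall has a GC content of 28.3% and is made in large part of alternating ca and ta steps. The SNORA33 probe has 38.3% GC, and the RNU12 probe 48.3%. Over all features the median GC content of the probes was 43.3%, with 41.7% for the rises and 45% for the falls.

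Further falls were seen in genes without a shared role. KRTAP5-10, a keratin-associated protein gene of hair, was at 1.45, 1.34, 2.76, 1.16 and 1.01 in CTL and −0.11, −0.09, 0.82, 0.92 and 0.67 in BP, a fall of 1.10 ± 0.25 (adjusted p = 0.0989, limma), and its other feature differed by −0.05. The complement component C3 was at 2.08, 2.28, 1.91, 1.47 and 1.19 in CTL and 0.65, 1.36, 0.97, 1.19 and 0.86 in BP, a fall of 0.78 ± 0.17. DUSP9, a phosphatase of ERK, fell by 0.72 ± 0.13, the noncoding LINC03009 by 0.68 ± 0.12, VCF2 by 0.58 ± 0.11, the profilin pseudogene PFN1P2 by 0.51 ± 0.11, the vesicle tethering gene VPS53 by 0.49 ± 0.11 and the antisense BAALC-AS2 by 0.44 ± 0.10. All CTL arrays were above all BP arrays for KRTAP5-10, LINC03009 and BAALC-AS2, and the groups overlapped for the others of these 8.

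BP cells were then set against the directly hit cells of the same dishes, with which they share no arrays. In this paired comparison the 265 rises had a median BP minus DBP difference of 0.09, with 19 of them at an unadjusted p under 0.05, and the 20 falls had a median of −0.17. Genes of the integrated stress response had a median of −0.09 (6 of 36 above 0), with −0.45 for CHAC1 and −0.10 for ASNS. The features called between BP and DBP were other ones: 12 of 12206 (0.0983%), all higher in BP. Leaving out any 1 pair left 0 of the 12 calls, except that 1 remained without replicate 5.

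Of these 12 features, 4 belonged to the list of G2/M genes (PSRC1, GAS2L3, HJURP and AURKA). Between BP and CTL the 12 differed by −0.10 (CCNF) to 0.25 (GAS2L3, unadjusted p = 0.0325, limma), and 0 were called. PIF1, a DNA helicase, was at 4.19, 4.18, 4.44, 4.44 and 4.60 in BP and 2.74, 2.86, 2.73, 3.24 and 3.65 in DBP, a difference of 1.33 ± 0.12 (SE; adjusted p = 0.0245, limma), while BP differed from CTL by −0.02. BORA, an activator of Aurora A, was at 3.66, 3.44, 3.09, 3.40 and 3.66 in BP and 2.33, 2.37, 2.12, 2.30 and 2.73 in DBP, a difference of 1.08 ± 0.10 against 0.07 between BP and CTL. TROAP, a spindle protein, was at 7.49, 7.33, 7.24, 7.49 and 7.58 in BP and 6.23, 6.23, 6.03, 6.51 and 6.76 in DBP, a difference of 1.07 ± 0.10 against −0.03. For these 3 genes, which were chosen by this test on the same arrays, no BP array fell into the DBP range. The share of all features without overlap between BP and DBP was not counted.

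LAG3, an immune checkpoint receptor, was 1.03 ± 0.15 higher in BP than in DBP with overlap between the groups, the only one of the 12 that overlapped. A probe without a gene, A_33_P3404221, differed by 1.50 ± 0.20, the largest of the 12. The spindle genes PSRC1 and FAM83D differed by 1.01 each, cyclin F (CCNF) by 1.00, the cytoskeleton linker GAS2L3 by 0.91, the CENP-A chaperone HJURP and the kinase AURKA by 0.79 each, and the pseudogene AURKAP1, whose sequence is close to AURKA, by 0.72. Of 53 G2/M genes, 48 were higher in BP than in DBP, with a median of 0.29 against −0.01 for all genes, and 8 were called on 1 feature per gene, where 0.138% of all genes were. S phase genes had a median of −0.10, with 8 of 43 above 0. In these cultures fewer cells in mitosis and less mRNA per cell cannot be told apart.

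**Figure D5:**
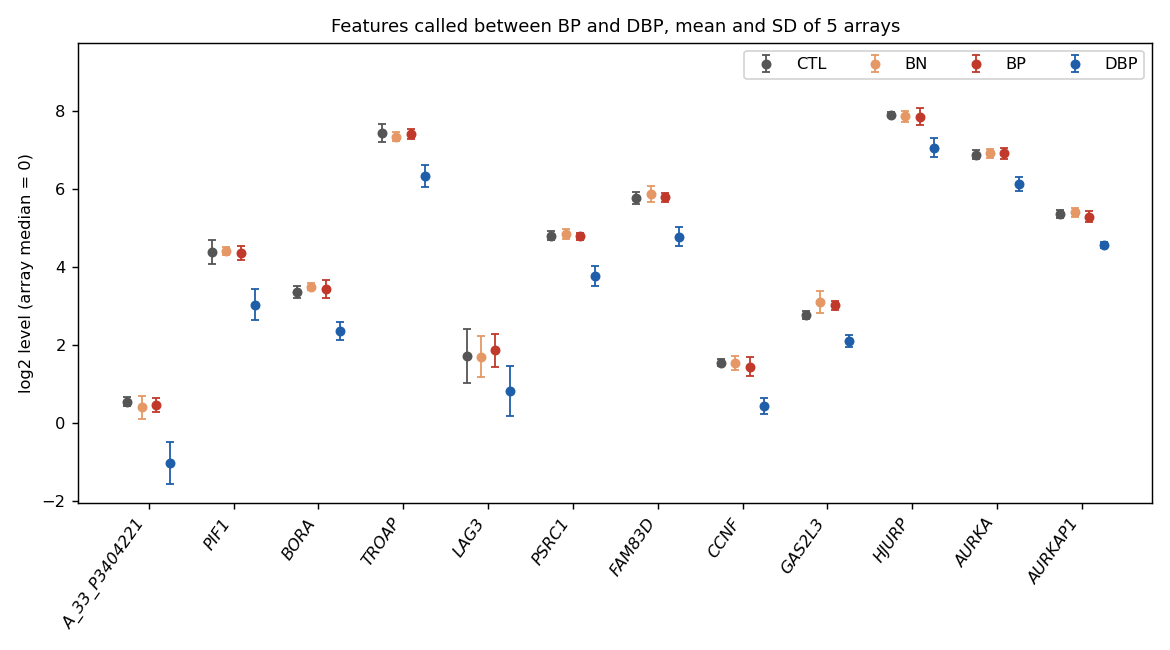
Mean log2 level relative to the array median, with SD over 5 arrays, of the 12 features called between BP and DBP, in the CTL, BN, BP and DBP groups of H1299shRAD9 cells. DBP is the lowest group for each feature, and the BP and CTL means differ by at most 0.25 (GAS2L3), while PIF1 is at 4.39, 4.42, 4.37 and 3.04 in CTL, BN, BP and DBP.

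No feature passed the test between bystanders with and without raised micronuclei. BP and BN, which share no arrays and came from different dishes, gave 0 calls by limma among 12206 features, 0 by the random-variance test, and 46 at an unadjusted p under 0.05 (45 by the random-variance test). These are fewer than chance alone would give at this threshold. The test had no block, and the SE of CHAC1 was 0.56 here against 0.25 between BP and CTL. The absence of calls therefore does not show that the groups were alike. The 265 rises had a median BP minus BN difference of −0.05 and the 20 falls one of −0.06. CHAC1 differed by 0.11, ZNF480 by 0.05, EGR1 by −0.13 and SNORA33 by −0.03, and the integrated stress response list had a median of 0.04. Of the called features named here, the noncoding LINC03009 was the lowest in BP relative to BN, at −0.55.

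In H1299 cells with RAD9, the same features lay on both sides of 0 between BP and CTL, with SNORA33 at −1.06, ID2 at −0.74, CHAC1 at −0.58 and EGR1 at 0.57. The median over the 265 rises was −0.00 and over the 20 falls −0.05, with 2 of the rises and 4 of the falls at an unadjusted p under 0.05 in the same direction. There, 0 of 12206 features were called by limma (711 at an unadjusted p under 0.05). The 5′ to 3′ index had an SD of 0.18 on H1299 BP and 0.07 on H1299 CTL arrays, against 0.04 in both H1299shRAD9 groups. Median intensity ranged from 70.3 to 196 on H1299 BP arrays and from 112 to 189 on H1299shRAD9 BP arrays. The part of these array differences in the H1299 result was not tested. The difference between the cell lines was tested directly as an interaction and gave 0 calls by limma (smallest adjusted p 0.687), 0 by the random-variance test, and 853 features at an unadjusted p under 0.05 (854 by the random-variance test), among them 106 of the 265 rises and 10 of the 20 falls. The interaction contains the BP minus CTL difference that chose these features, so their median interaction of 0.64 for the rises and −0.58 for the falls is a description. The integrated stress response list had a median of −0.21 in H1299 cells, with −0.58 for CHAC1, −0.20 for ASNS and −0.78 for NUPR1. The median interaction over all features moved with the scaling, from 0.10 relative to the array median to −0.03 relative to the 75th percentile and 0.28 after normexp background correction.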

How the data were processed

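Total RNA of H1299 and H1299shRAD9 cells was labeled with Cy3 and hybridized to 50 arrays (10 groups of 5). Per the file headers, Agilent Feature Extraction 11.5.1.1 removed a spatial background and gave processed intensities for 44495 spots, of which 43118 carry 34127 probes that are not controls. The authors also deposited log2 values, background corrected and median normalized, for 9502 features, and these served as an alternative.

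Here, log2 of the processed intensity minus the array median was averaged over the spots of a probe. Outlying spots were left out, and the 648 missing values were not imputed. Features not well above background or outlying on 25% or more of the arrays were dropped (20100 left), as were those without a 1.3-fold difference from their median on at least 20% of the arrays (12206 left). Probes were named by accession (25773), symbol (2207) or older symbol (499), and 5648 stayed unnamed.

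Levels were tested with limma 3.58.1 in R 4.3.3, with the replicate number as a block for BP against CTL and against DBP, no block for BP against BN, and cell line and replicate together for the interaction. A call required p under 0.006 and a Benjamini-Hochberg adjusted p under 10%. The methods of the study describe paired sample sets, and the numbers in the labels were taken as the pairs, which the labels do not state. Deviations of same-numbered arrays from their group means correlated at 0.366 to 0.720 (mean 0.530), and 3 of the 5 CTL arrays correlated best with their own number. Other pairs had a mean of −0.129, which such deviations force below 0 when same-numbered arrays correlate. Same-numbered arrays mostly shared a scan day and some a slide, and the part of this in the correlations was not tested. P-values of the fits with a block measure the spread of the differences within the 5 pairs. Those of BP against BN, without a block, measure the spread between the 5 cultures per group. Single values were compared with 2-sided exact permutation tests over the 32 sign flips. The 5′ to 3′ index was the median, over 2512 transcripts with several features, of the level at the outermost 5′ feature less that at the outermost 3′ feature. The number of arrays limits the precision.

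Gene lists were described on 1 feature per gene (13810 genes), the brightest, with no set test. The G2/M and S phase lists came from Seurat 5.3.0. Named were the 15 largest rises and 12 largest falls with a gene symbol among calls that moved the same way in all pairs and were well above background on at least 4 arrays of each group (only 11 falls met this), the genes the study names for BP cells, the called members of each list (or the 2 with the smallest p), RAD9A, RAD1 and HUS1, and the 4 largest differences from DBP. Others were named after their values were seen. The members and lists were chosen with earlier results of these data known. The code was tested on simulated data. Alternatives covered scaling, background correction, filters, the test, the samples in the fit, slide and replicate blocks, the index, and leaving out each replicate. Some items are not reported here.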

Additional observations from a re-analysis of the deposited data

Results flagged for a closer look

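In 7 of 152 sets of 5 arrays (the CTL or BP arrays of a named feature), 1 array stood apart from the other 4 by Dixon's ratio, which chance gives in about 1 of 20 sets. KRTAP5-10 was at 2.76 in CTL replicate 3, where the other controls were at 1.01 to 1.45. VCF2 was at 0.52 in CTL replicate 2 (others −0.83 to −0.60) and at −0.38 in BP replicate 2 (others −1.31 to −1.06). SF3B1 was at 1.24 in CTL replicate 5 (others 0.81 to 0.92) and at 1.81 in BP replicate 5 (others at most 1.44), so that for VCF2 and SF3B1 both arrays of 1 pair stood high. RAD1 was at 3.75 in BP replicate 3 (others 3.93 to 3.97), and HNRNPH1 at 8.70 in CTL replicate 4 (others 8.40 to 8.46).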

How the results depend on the processing

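For BP against CTL, 285 features were called. The count was 182 (170 higher, 12 lower) with 75th percentile scaling, 168 with all groups in one fit and 101 of 9472 with the authors' processed values. It was 0 with the other background mark of the software, with which 16673 features were tested, and 0 with the 5′ to 3′ index as a covariate. Without the replicate block, which leaves the pairing out, it was 0 as well. With only the most 3′ feature of a transcript, an alternative chosen after seeing the data, it was 58, from fewer features. Leaving out 1 replicate gave 0 to 199 calls. Slide as a fixed block gave 273 calls (181 higher, 92 lower) with 1 residual degree of freedom, and 79 of them were among the 285. Under the remaining alternatives, which were quantile normalization, normexp, 2 other filters, the random-variance test, slide as a random block and the median taken over spots (also chosen after seeing the data), the count stayed between 231 and 325. The 48 called features that were named by the rules given above kept their direction wherever they were tested. They were chosen by a test on these same arrays, and nearly all moved the same way in all pairs. Leaving out a pair or the block could therefore hardly change their direction. Of the 48, 0 stayed called with the other background mark, with the index as a covariate or without the replicate block. The same held without replicate 1, 2, 4 or 5. Called features named outside these rules were not followed in this way.

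For BP against DBP, 12 features were called. The count was 25 with quantile normalization, 22 with normexp, 0 with the other background mark, 41 with all groups in one fit, 29 (27 higher, 2 lower) with the authors' values and 30 (28 higher, 2 lower) with slide as a random block, and 0 to 1 when 1 replicate was left out. Without the replicate block it was 13. BP against BN, with and without the replicate block, and the difference between cell lines gave 0 calls under every alternative run. Apart from the smaller number of arrays or features in some of these fits, the cause of the changed counts was not tested. The RAD9A difference stayed between −0.02 and 0.10, and the index difference between 0.07 and 0.12 without 1 replicate (chosen after seeing the data). The median of the integrated stress response list ranged from 0.11 (index as a covariate) to 0.30, and was 0.23 on the 2 pairs that share a slide, both chosen after seeing the data. With 5 pairs, adjusted p-values near the threshold cross it easily, and features near background have less certain differences.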
